A study of Mus musculus with 20 samples.

Results

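The comparison described here set microglia isolated 2 weeks after full transection of the spinal cord (FT 2 weeks) against microglia of non-injured (NI) mice, across all 16810 genes of the deposited table. The groups were taken from the sample labels, 3 samples each, so that 6 of the 20 samples of the series entered the comparison; FT samples at 72 h and 1 week and samples taken 2 weeks after a lateral hemisection (HS 2 weeks), 3 of each, served to place the levels at 2 weeks. All mice were adult male heterozygous CX3CR1+/eGFP animals on a C57BL/6 background, and the injured mice were operated at 12 weeks of age. They carry enhanced green fluorescent protein (eGFP) under the *Cx3cr1* promoter, which labels microglia but is also active in monocytes and in macrophages. FT mice received a complete lesion at thoracic level 9, which gave complete paraplegia, and NI mice received none; the methods name no sham operation, so that the lesion and the opening of the vertebra cannot be told apart. Cells with high eGFP were sorted by flow cytometry from a segment of 1 cm around the lesion, or from an equivalent thoracic segment in NI mice, and their polyadenylated RNA was sequenced. More mice than libraries were used, and the number of mice in each library is not given in the sources used here.

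Microglia are the resident macrophages of the central nervous system. In the intact cord they survey the tissue and carry a set of transcripts often called homeostatic, such as *P2ry12*, *Tmem119* and *Cx3cr1*. Around damaged axons and myelin they take up debris, and a state often called damage-associated is known, in which lipid carriers, lysosomal enzymes and the receptor TREM2 take part.

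Between 6040762 and 13937586 reads per NI sample and between 11565342 and 12924021 per FT 2 weeks sample lay on the genes of the table. Levels are given in CPM, counts scaled to a common library size, as deposited, and a read was worth 0.0596 to 0.129 CPM in NI and between 0.0764 and 0.0936 CPM in FT 2 weeks. Replicates differed by 3.13 to 4.88 times the sampling noise in NI and by 4.94 to 7.38 times in FT 2 weeks. FT 2 weeks replicate 1 lay apart from the other two: its root mean square distance to them was 0.577 and 0.556 on the log2 scale, and theirs to each other was 0.451. The columns of NI summed to 777426 to 830481 CPM and those of FT 2 weeks to 986954 to 1082460 CPM. When each column was scaled to an equal total instead, the log2 fold change of the median gene moved from -0.02 to -0.36, so that counts of higher genes can depend on the scale; those of some lists did and those of others, such as chemokines and phagocytic receptors, did not. In sorted cells measured in bulk, fewer cells of a type and less of an RNA per cell cannot be told apart.

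In FT 2 weeks, 821 genes were differentially expressed (DE) relative to NI, with a limma adjusted p-value under 0.05 and a change of at least 2-fold. Of these, 593 were higher (3.53% of the genes tested) and 228 were lower (1.36%). At least 4-fold changes were found in 143 higher and 43 lower genes, and at least 8-fold changes in 39 and 5. The higher genes had a median level of 16.9 CPM in NI and 57.9 CPM in FT 2 weeks, and the lower genes 8.84 and 2.53 CPM. All 3 FT 2 weeks samples lay above all 3 NI samples for 2909 genes (17.3%) and below them for 2244 genes (13.3%). Among DE genes this held for 591 of the 593 higher and 220 of the 228 lower, which were called from the same values, so that this is no separate support. The share of higher genes among DE genes was 72.2%, and with equal column totals it was 25.9% (287 higher and 819 lower). All 593 higher genes kept their sign on that scale and 287 of them remained DE, and all 228 lower genes remained DE. Without FT 2 weeks replicate 1, 718 genes were DE, of which 632 were shared with the fit of all samples.

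**Figure D1:**
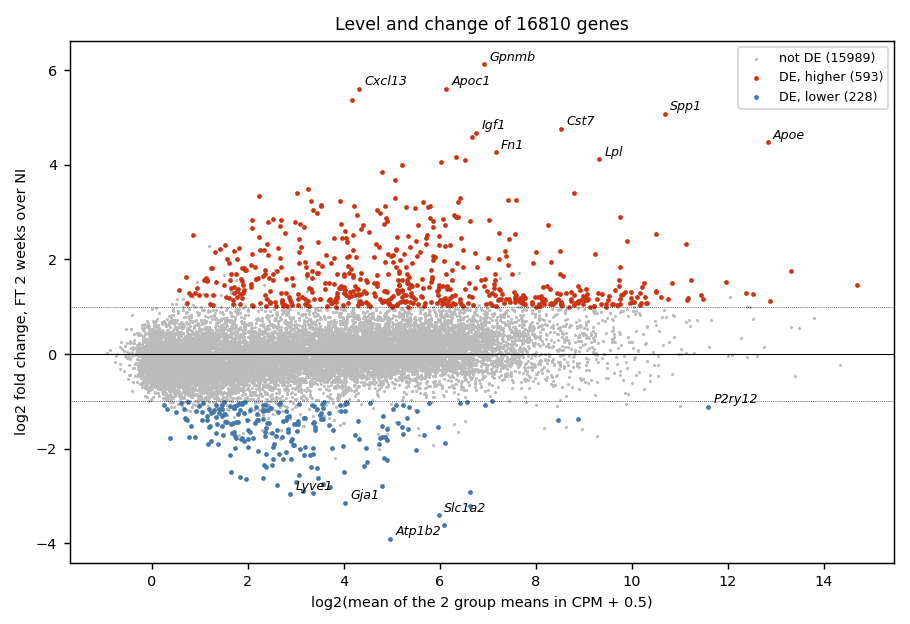
Level (horizontal axis, log2 of the mean of both group means in CPM plus 0.5) and log2 fold change of FT 2 weeks over NI (vertical axis) of 16810 genes, 1 point per gene. DE genes are coloured by direction, 593 higher and 228 lower, and dotted lines mark a 2-fold change; *Gpnmb* and *Cxcl13* lie at the top and *Atp1b2* at the bottom.

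The 12 largest rises and falls were taken from DE genes without overlap between groups and with a mean of at least 5 CPM in 1 group. Among the rises were genes for a membrane glycoprotein (*Gpnmb*), a chemokine (*Cxcl13*), apolipoproteins (*Apoc1*, *Apoc4* and *Apoe*), matrix proteins (*Spp1* and *Fn1*) and a growth factor (*Igf1*). *Gpnmb*, which encodes a transmembrane glycoprotein of phagocytes (chromosome 6 of GRCm38, 49036546 to 49070929), had 2.80, 2.57 and 3.36 CPM in the 3 NI samples and 238, 260.0 and 212 CPM in the 3 FT 2 weeks samples. The groups lay far apart and the samples within each close together. Its log2 fold change was 6.12 (standard error 0.29, adjusted p = 1.24e-11, limma). *Spp1*, which encodes the secreted matrix protein osteopontin (chromosome 5, 104435118 to 104441050), had 79.4, 94.8 and 108 CPM in NI and 3748, 2961 and 2894 CPM in FT 2 weeks, a log2 fold change of 5.08 (standard error 0.25, adjusted p = 1.42e-11, limma). *Igf1*, the growth factor insulin-like growth factor 1 (chromosome 10, 87858265 to 87937042), rose from 7.62 ± 1.6 to 207 ± 37.7 CPM (SD, n = 3 each, log2 fold change 4.68).

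Of 21 listed genes of damage-associated microglia, 20 rose and 0 fell, with a median log2 fold change of 2.74 against -0.02 over all genes. The FT 2 weeks samples lay above all NI samples for all 21 genes of that list, against 17.3% of all genes. For this and each list below, the shares of all genes that rose and fell were 3.53% and 1.36%. *Cst7*, an inhibitor of cathepsins (chromosome 2, 150570415 to 150578944), had 20.3 to 34 CPM in NI and between 683 and 761 CPM in FT 2 weeks (log2 fold change 4.76). *Tyrobp*, the adaptor through which TREM2 signals, rose from 1758 ± 289.9 to 3914 ± 274 CPM (SD, n = 3 each, log2 fold change 1.16, adjusted p = 0.00451, limma), a call that was lost with equal column totals and with quantile normalisation. The member that did not pass was *Trem2* itself, with 1733, 1739 and 1807 CPM in NI and 2990, 3215 and 2546 CPM in FT 2 weeks (log2 fold change 0.72, adjusted p = 0.0567, limma). Its groups did not overlap, but its adjusted p and its fold both missed the limits.

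*Apoe* encodes apolipoprotein E, a carrier of cholesterol and other lipids that glia secrete (chromosome 7, 19696109 to 19699188). It had 508, 939 and 283 CPM in NI and 25540, 10890 and 5402 CPM in FT 2 weeks. The spread within each group was wide and the highest FT 2 weeks level was in replicate 1, yet the groups did not overlap. The log2 fold change was 4.48 (standard error 0.78, adjusted p = 0.000515, limma), and 3.90 without FT 2 weeks replicate 1. Next to it on chromosome 7 lie *Apoc1* (19689481 to 19692660) and *Apoc4* (19678083 to 19681479), which encode smaller apolipoproteins. *Apoc1* had 2.21 to 2.44 CPM in NI and between 120 and 153 CPM in FT 2 weeks, a log2 fold change of 5.60 (adjusted p = 1.17e-13, limma). *Apoc4* had 6 reads or fewer in each NI sample, and 30.01 to 38.6 CPM in FT 2 weeks. Its fold therefore depends on the value added before the logarithm: the log2 fold change was 5.37 with 0.5 CPM added, 6.31 with 0.1 CPM and 4.72 with 1 CPM.

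Of 23 listed genes for lipid uptake, storage and efflux, 14 rose and 0 fell (median log2 fold change 1.42). *Lpl*, lipoprotein lipase (chromosome 8, 68880491 to 68907448), had 64.1, 72.5 and 67.0 CPM in NI and 1536, 1032 and 1038 CPM in FT 2 weeks (log2 fold change 4.11, standard error 0.23). *Ch25h*, the enzyme that makes 25-hydroxycholesterol (chromosome 19, 34473778 to 34475164), had 6.91 to 8.24 CPM in NI and between 153 and 267 CPM in FT 2 weeks (log2 fold change 4.58). *Msr1*, a scavenger receptor, rose from 11.5 ± 3.60 to 55.0 ± 14.9 CPM (SD, n = 3 each). *Cd36*, a fatty acid translocase, had 24.2 ± 5.37 and 45.6 ± 11.5 CPM and an adjusted p of 0.0254 (limma), under the 2-fold limit. Genes of cholesterol synthesis stood apart from these. Of 21 listed, 0 rose and 1 fell, with a median of -0.02.

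**Figure D2:**
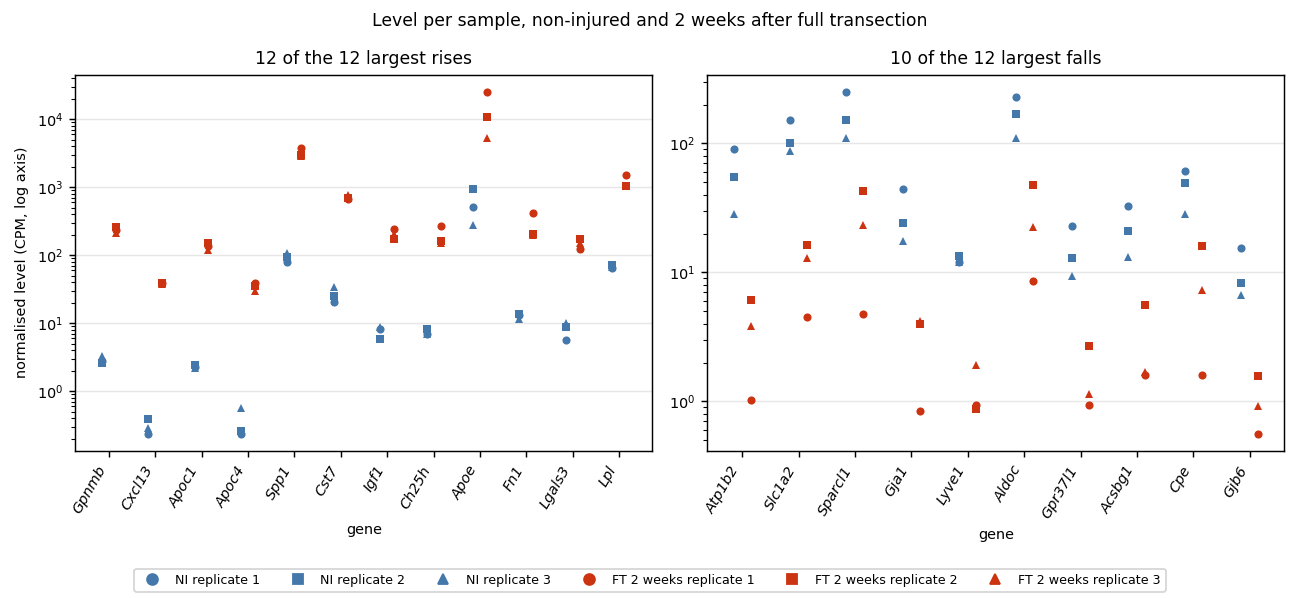
Level in CPM (vertical axis, logarithmic) in each of the 3 NI and 3 FT 2 weeks samples for the 12 genes with the largest rise (left) and 10 of the 12 with the largest fall (right), ordered by log2 fold change. Only genes without overlap between groups could be chosen, so that its absence here follows from the choice. *Apoe* spreads most among the risen genes, from 5402 to 25540 CPM, and FT 2 weeks replicate 1 (circle) is the lowest sample for 9 of the 10 fallen genes.

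Lysosomal genes rose in part, and the number depended on the scale. Of 28 listed genes 13 rose and 0 fell, with a median log2 fold change of 0.92. With equal column totals 6 remained DE (median 0.52, against -0.36 over all genes on that scale), and with quantile normalisation 3. *Ctsb*, the protease cathepsin B, had 5296, 4568 and 4039 CPM in NI and 18740, 15580 and 12630 CPM in FT 2 weeks (log2 fold change 1.75, standard error 0.32). *Ctsd*, the aspartic protease cathepsin D, had 13960 ± 514 and 38670 ± 5490 CPM (SD, n = 3 each) and was the most abundant transcript of each FT 2 weeks sample, at 3.32% to 4.04% of its reads. Its log2 fold change was 1.46 (adjusted p = 0.0153, limma), but it was not DE without NI replicate 2 or 3, without FT 2 weeks replicate 1 or 2, or with quantile normalisation. *Gla*, alpha-galactosidase A, went from 16.4 ± 0.970 to 60.8 ± 10.5 CPM (log2 fold change 1.85). *Lamp1* and *Lamp2*, which encode membrane proteins of the lysosome, had log2 fold changes of 0.91 and 0.72 and did not reach 2-fold.

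Many lysosomal genes carry a short palindromic element near their start, and its letters are shown here because the list rose in part. The letters TCACGTGA, which hold the E-box CACGTG, were searched on both strands in RefSeq promoter windows of GRCm38.p6, each 300 bases long with 250 before and 50 after the start. A window was found for 21 of the 28 lysosomal genes and 6 of them (28.6%) held the letters, against 1.85% of the 13227 genes of the table with a window and 0.974% of all 32851 windows. They were in 4 of 10 genes that rose and in 2 of 11 that were not DE. A match is a description of letters and not a site in use. Among the risen genes with a match, those of *Gla* (chrX:134601206-134601253, minus strand), *Ctsd* (chr7:142387899-142387946, minus strand) and *Ctsa* (chr2:164833740-164833787, plus strand), which encodes cathepsin A, are given 5′ to 3′ on the strand of the gene, with the match in capitals. The match begins 228, 99 and 13 bases before the start, and the stretch of *Ctsa* holds a second match.
Gla: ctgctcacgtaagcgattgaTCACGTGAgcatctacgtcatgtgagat
Ctsd: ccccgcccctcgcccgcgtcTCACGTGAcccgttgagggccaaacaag
Ctsa: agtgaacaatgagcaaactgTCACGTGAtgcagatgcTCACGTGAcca

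Interferon-stimulated genes formed the list with the largest number of rises. Of 34 listed, 25 rose and 0 fell, with a median log2 fold change of 2.02, and 5 others were higher with an adjusted p under 0.05 but under 2-fold. With equal column totals 22 remained DE, and without FT 2 weeks replicate 1, 23. *Zbp1*, a sensor of nucleic acids in the Z conformation, had 2.50, 2.06 and 2.69 CPM in NI and 27.8, 25.7 and 26.9 CPM in FT 2 weeks, a log2 fold change of 3.23 (standard error 0.27, adjusted p = 3.31e-08, limma). *Irf7*, a transcription factor of the interferon response, had 14.6 to 20.9 CPM in NI and between 106 and 201 CPM in FT 2 weeks (log2 fold change 2.90). *Isg15*, a ubiquitin-like modifier, had 8.88, 9.91 and 11.1 CPM in NI and 51.6, 59.6 and 61.5 CPM in FT 2 weeks (log2 fold change 2.47). The groups were well separated for all 3. *Oasl2* and *Ifit2*, further antiviral genes, rose by 3.10 and 2.87 on the log2 scale, and *Ifit1* by 2.65 on the log2 scale. Genes of the *Ifit*, *Ifitm*, *Oas* and *Gbp* families have close relatives, so that the split of reads among them is uncertain.

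Interferon acts through an element whose core, GAAANNGAA, was searched in the same windows on both strands; neighbouring matches can overlap. Of the 34 interferon-stimulated genes, 25 had a window and 17 of these (68.0%) held the letters, against 8.97% of the genes of the table with a window and 8.56% of all windows. They were found in 11 of 17 genes that rose and in 6 of 8 that were not DE. The 4 genes with the largest rise and a match are shown, with all complete matches in capitals, and the matches of *Ifit3* and *Ifit1* lie on the other strand. The stretches are those of *Cxcl10* (chr5:92349074-92349122, minus strand), *Oas1a* (chr5:120907517-120907565, minus strand), *Ifit3* (chr19:34583354-34583402, plus strand) and *Ifit1* (chr19:34640760-34640808, plus strand), and that of *B2m* (chr2:122147528-122147576, plus strand) is added from the MHC class I genes described next, of which 14 had a window and 4 (28.6%) held the letters, 3 of 9 that rose and 1 of 5 that were not DE.
Cxcl10: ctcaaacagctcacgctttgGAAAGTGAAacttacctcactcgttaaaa
Oas1a: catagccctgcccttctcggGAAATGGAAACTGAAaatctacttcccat
Ifit3: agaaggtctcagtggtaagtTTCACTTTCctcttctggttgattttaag
Ifit1: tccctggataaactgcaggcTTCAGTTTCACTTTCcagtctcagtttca
B2m: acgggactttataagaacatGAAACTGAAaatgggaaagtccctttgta

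MHC class I molecules display peptides from inside the cell. Of 19 listed genes for MHC class I and the immunoproteasome, 17 were in the table, 10 rose and 0 fell (median log2 fold change 1.15); with equal column totals and with quantile normalisation 4 were DE. *Nlrc5*, the transactivator of these genes, had 10.5, 12 and 10.2 CPM in NI and 46.4, 53.9 and 45.3 CPM in FT 2 weeks (log2 fold change 2.11, standard error 0.20). *B2m*, the light chain beta-2-microglobulin, had 3662, 2845 and 3899 CPM in NI and 7616, 7984 and 9237 CPM in FT 2 weeks (log2 fold change 1.26, adjusted p = 0.0156, limma); it was not DE with equal column totals, with quantile normalisation, or without NI replicate 2 or FT 2 weeks replicate 3. *H2-K1*, a heavy chain, rose from 456 ± 15.7 to 1242 ± 222 CPM (SD, n = 3 each). *H2-K1*, *H2-D1* and other heavy chains are near-identical in part, so that reads could be split among them. MHC class II molecules serve presentation to helper T cells. Of 14 listed genes of class II and costimulation, 2 rose, both for costimulatory or activation proteins, *Cd40* (log2 fold change 1.61) and *Cd83* (1.10), and the median of the list was 0.16, which was -0.23 with equal column totals, where 1 was higher and 2 were lower. *Cd83* lost its call in 6 settings, and 1 gene of the list was DE without NI replicate 1 or 3 or without FT 2 weeks replicate 2 or 3. *H2-Aa*, a class II chain, had 316, 334 and 372 CPM in NI and 135, 276 and 329 CPM in FT 2 weeks (log2 fold change -0.56, adjusted p = 0.518, limma).

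Chemokines attract other leukocytes. Of 18 listed, 9 rose and 0 fell (median log2 fold change 1.21). *Cxcl13*, a chemokine for B cells (chromosome 5, 95956951 to 95961068), had 4, 3 and 3 reads in the NI samples, or 0.238 to 0.386 CPM, and 39.0, 38.7 and 38.0 CPM in FT 2 weeks. The 3 injured samples were nearly equal. Its log2 fold change was 5.61 with 0.5 CPM added, and 6.6 and 4.92 with 0.1 and 1 CPM. *Ccl5*, a chemokine for T cells, had 7.69, 10.3 and 10.9 CPM in NI and 171, 169 and 178 CPM in FT 2 weeks (log2 fold change 4.11, standard error 0.26). *Cxcl9* and *Cxcl10*, both induced by interferon, rose by 3.24 and 2.86 on the log2 scale, and *Cxcl10* was lowest in FT 2 weeks replicate 1 (61.9 against 142 and 148 CPM). *Ccl2*, a chemokine for monocytes, had 307, 491 and 585 CPM in NI and 93.8, 296 and 318 CPM in FT 2 weeks (log2 fold change -1.11, adjusted p = 0.217, limma).

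Of 17 listed complement genes, 3 rose and 1 fell, with a median log2 fold change of 0.57 (0.18 with equal column totals). All FT 2 weeks samples lay above all NI samples for 10 of the 17, against 17.3% of all genes. They lay below them for 1, against 13.3%. *C3*, the central component, had 6.20, 7.46 and 6.91 CPM in NI and 120, 124 and 122 CPM in FT 2 weeks (log2 fold change 4.06, standard error 0.21, adjusted p = 2.50e-11, limma), and *Cfb*, factor B of the alternative pathway, and *C4b*, a component of the classical pathway, rose by 3.13 and 2.08. *C1qa*, a chain of the recognition protein C1q, had 1098 ± 161 and 1769 ± 235 CPM (SD, n = 3 each, log2 fold change 0.69, adjusted p = 0.135, limma). The gene that fell was *Clu*, clusterin, a chaperone that astrocytes express in abundance (-1.81, adjusted p = 0.0225, limma). Its groups overlapped. It was not DE without either of NI replicates 1 and 2 or of FT 2 weeks replicates 1 and 3, or when only the 6 samples were fitted.

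Cytokine and immediate-early genes separated FT 2 weeks replicate 1 from the other two samples. Of 29 listed genes for cytokines, Toll-like receptors and NF-kB, 3 rose and 0 fell, namely *Il1rn*, the antagonist of the interleukin 1 receptor, *Tlr2* and *Il12b* (log2 fold changes 3.08, 1.70 and 1.56). Without FT 2 weeks replicate 1, 7 were DE, with *Il1b*, *Tnf*, *Ptgs2* and *Tnfaip3* added. *Il1b*, which encodes interleukin 1 beta, had 46.0, 65.2 and 82.1 CPM in NI and 38.4, 459.6 and 501 CPM in FT 2 weeks. Replicate 1 lay below all NI samples and the other two far above them. The log2 fold change was 1.72 (adjusted p = 0.171, limma) with all samples and 2.93 without replicate 1. *Tnf* had 64.5, 73.9 and 74.3 CPM in NI and 21.7, 253 and 265 CPM in FT 2 weeks (0.68 with all samples and 1.86 without replicate 1).

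The immediate-early and heat-shock genes, which respond within minutes to stimulation, stress and tissue handling, held 0 DE genes of 25. Their median log2 fold change was -0.67, and 0.16 without FT 2 weeks replicate 1. *Fos* had 1604, 2879 and 2806 CPM in NI and 225, 2281 and 2552 CPM in FT 2 weeks. *Egr1* had 728, 1203 and 1294 CPM in NI and 92.3, 1190 and 1145 CPM in FT 2 weeks. The same sample, replicate 1, was low for both, and the summed level of the list was 4856 CPM in it against 12370 to 17250 CPM in the other 5 samples. The part of this difference in the levels of *Il1b*, *Tnf* and other inflammatory genes was not tested.

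**Figure D3:**
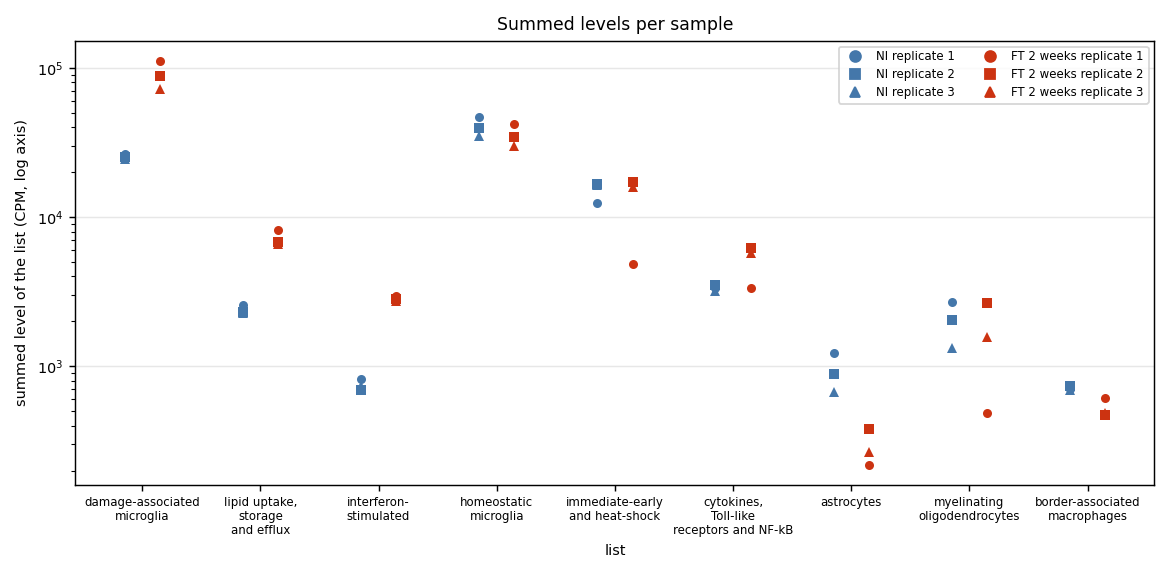
Summed level in CPM (vertical axis, logarithmic) of 9 gene lists in each NI and FT 2 weeks sample. FT 2 weeks replicate 1 (red circle) lies at 4856 CPM for immediate-early and heat-shock genes, with the other 5 samples between 12370 and 17250 CPM, and it is the lowest sample for the astrocyte and myelin lists.

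Genes for the matrix, for adhesion and for proteolysis rose in 8 of 25 cases, and 0 fell. *Fn1*, fibronectin (chromosome 1, 71585520 to 71653200), had 13.5, 13.9 and 11.4 CPM in NI and 416, 203 and 199 CPM in FT 2 weeks (log2 fold change 4.26, and 3.91 without replicate 1). *Mmp12*, the macrophage elastase, had 3.17 to 5.28 CPM in NI and between 59.3 and 63.1 CPM in FT 2 weeks (log2 fold change 3.69). *Plaur*, the urokinase receptor, and *Cd44*, a receptor of hyaluronan and osteopontin, rose by 2.91 and 2.39. Of 21 listed genes for intermediate filaments, annexins, S100 proteins and galectins, 9 rose and 1, *S100a10*, fell. Without FT 2 weeks replicate 1, *S100a10* was not DE. *Lgals3*, galectin 3 (chromosome 14, 47367751 to 47386160), had 5.66, 8.75 and 9.98 CPM in NI and 124, 175 and 154 CPM in FT 2 weeks (log2 fold change 4.16). *Anxa2*, annexin A2, and *Vim*, the filament protein vimentin, rose by 2.81 and 2.05. *Nes*, nestin, a filament protein of progenitors, rose from 6 ± 1.10 to 26.4 ± 3.76 CPM (SD, n = 3 each). *Gfap*, the filament protein of astrocytes, had 52.6, 54.6 and 28.3 CPM in NI and 33, 58.7 and 27.3 CPM in FT 2 weeks, and its groups overlapped (log2 fold change -0.20); it was named after its values were seen.

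Of 18 listed growth factor genes 5 rose and 0 fell, and 2 of them were DE with equal column totals. Apart from *Igf1* these were *Csf1*, the colony stimulating factor on which microglia depend (39.2 ± 9.35 to 171 ± 22.4 CPM, SD, n = 3 each), *Grn*, progranulin, *Gdf3* and *Pdgfa*, with log2 fold changes of 2.13, 1.24, 1.19 and 1.08. *Gdf3* was low, with 1.37 ± 0.412 and 3.74 ± 0.691 CPM (SD, n = 3 each). It was not DE with equal column totals or without NI replicate 1 or 2 or FT 2 weeks replicate 1 or 3. *Vegfa*, the vascular growth factor, had 2.11 to 2.80 CPM in NI and 1.59, 3.92 and 5.65 CPM in FT 2 weeks (log2 fold change 0.37). Of 24 listed phagocytic receptors, 6 rose and 0 fell. *Axl*, a receptor for dying cells, had 66.9, 86.4 and 82.9 CPM in NI and 632, 480.0 and 473 CPM in FT 2 weeks (log2 fold change 2.74, standard error 0.22). *Mertk*, of the same family, had 357 ± 49.7 and 307 ± 36.0 CPM (SD, n = 3 each, log2 fold change -0.21, adjusted p = 0.755, limma). *Lilrb4*, an inhibitory receptor, and *Olr1*, a receptor for oxidised lipoproteins, rose by 3.25 and 2.76 on the log2 scale. *Fcgr1*, a receptor for antibodies, had a log2 fold change of 0.45 and did not pass.

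Among 29 listed genes for the oxidative burst, antioxidants and iron, 11 rose and 0 fell. This number too depended on the scale, with 6 DE with equal column totals and 7 with quantile normalisation. *Cybb*, the catalytic subunit of the phagocyte oxidase, had 52.4, 55.5 and 51.7 CPM in NI and 348, 246 and 285 CPM in FT 2 weeks (log2 fold change 2.44, standard error 0.24). *Gpx3*, glutathione peroxidase 3, and *Lyz2*, lysozyme, rose by 2.61 and 2.33; the reads of *Lyz2* can be shared with its paralog *Lyz1*. *Hmox1*, heme oxygenase 1, had 72.3, 32.7 and 27.1 CPM in NI and 138, 366 and 264 CPM in FT 2 weeks (log2 fold change 2.55, adjusted p = 0.0119, limma), and lost its call without NI replicate 2, NI replicate 3 or FT 2 weeks replicate 2. Of 18 listed glycolysis genes 7 rose and 0 fell (median log2 fold change 0.86). *Pkm*, pyruvate kinase, rose from 426 ± 33.1 to 1274 ± 288 CPM and *Ldha*, lactate dehydrogenase A, from 233 ± 5.33 to 500.3 ± 54.2 CPM (SD, n = 3 each). Of 34 listed genes of oxidative phosphorylation 3 rose and 0 fell (median 0.56), and 1 was DE without FT 2 weeks replicate 2. With equal column totals, 1 glycolysis gene, *Pkm*, was DE and higher and another was DE and lower, and 0 genes of oxidative phosphorylation were DE, so that the number of calls in both lists rests on the scale.

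**Figure D4:**
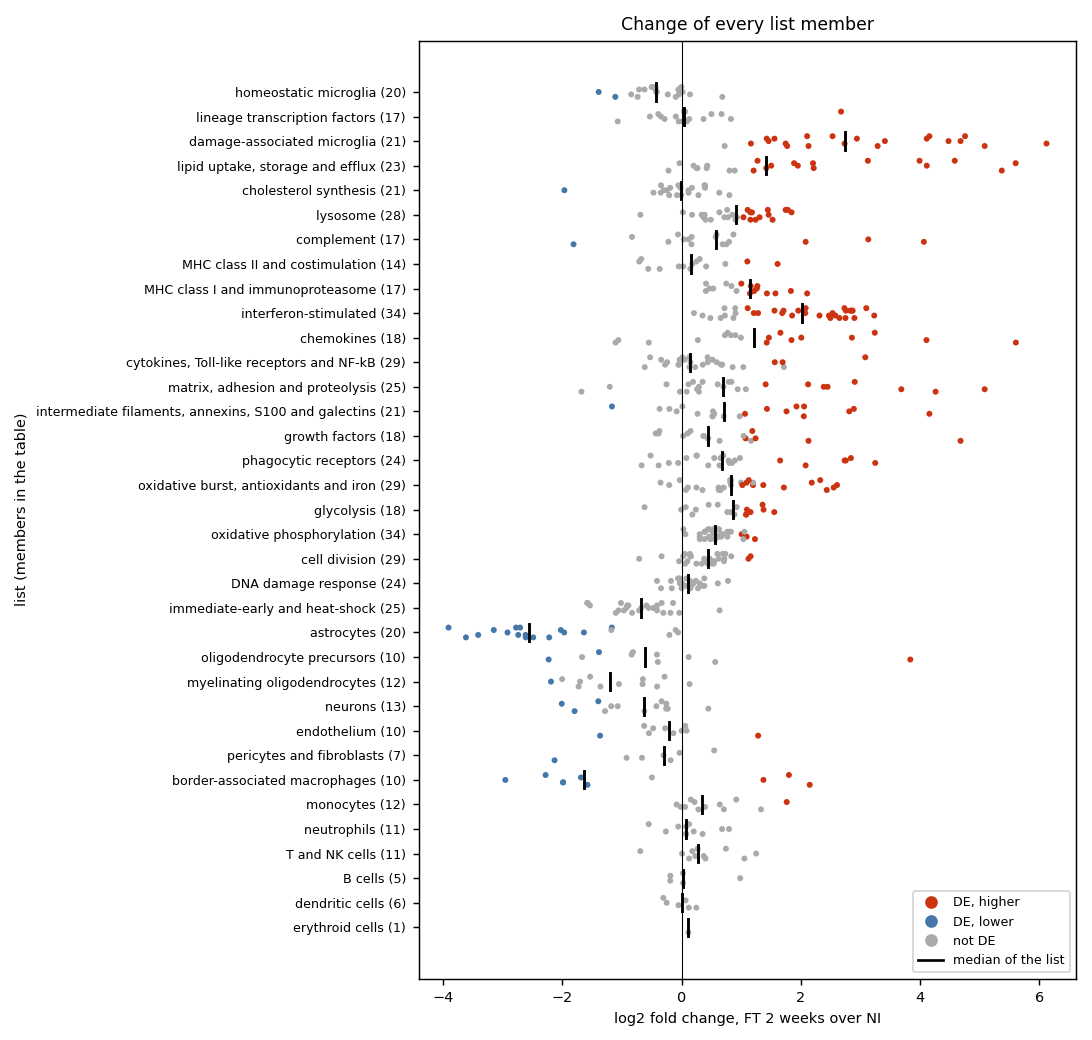
Log2 fold change of FT 2 weeks over NI (horizontal axis) of every member of 35 gene lists (vertical axis, with the number of members in the table), coloured by DE call, with the median of each list as a black bar. The medians are 2.74 for damage-associated microglia, 2.02 for interferon-stimulated genes and -2.55 for astrocytes.

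Few homeostatic genes of microglia were DE. Of 20 listed, 0 rose and 2 fell, and the median log2 fold change was -0.43 (-0.83 with equal column totals, where 6 fell, and 8 were DE with quantile normalisation). A further 3 were lower with an adjusted p under 0.05 but under 2-fold. All FT 2 weeks samples lay below all NI samples for 10 of the 20, against 13.3% of all genes, and above them for 1, against 17.3%. *Slc2a5*, a fructose transporter of microglia, had 609, 479 and 438 CPM in NI and 231, 187 and 164 CPM in FT 2 weeks (log2 fold change -1.39, standard error 0.24, adjusted p = 0.000418, limma). *P2ry12*, the ADP receptor of surveying microglia, had 5085, 3845 and 3739 CPM in NI and 2319, 1709 and 1834 CPM in FT 2 weeks. Its groups were apart, with a log2 fold change of -1.11, but its adjusted p was 0.0492 (limma), and it was not DE with any of the 6 samples left out. *Tmem119*, a membrane protein that marks microglia, had 1239 ± 37.1 and 690.5 ± 33.7 CPM (SD, n = 3 each), an adjusted p of 0.0153 (limma) and a change under 2-fold. *Cx3cr1*, the fractalkine receptor whose promoter drives eGFP, had 2017, 1997 and 2040 CPM in NI and 2571, 867 and 1522 CPM in FT 2 weeks, with overlap (log2 fold change -0.43, adjusted p = 0.545, limma). The summed level of the homeostatic list was 34800 to 46840 CPM in NI and between 30110 and 42210 CPM in FT 2 weeks. Of 17 listed lineage transcription factors 1 was DE, *Rxrg*, a retinoid X receptor, which rose from 1.97 ± 0.653 to 15 ± 2.62 CPM (SD, n = 3 each, log2 fold change 2.68, adjusted p = 2.13e-07, limma). *Sfpi1*, which encodes PU.1, had log2 fold change -0.05 and *Irf8* 0.37, and these did not pass.

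Of 29 listed cell division genes, 2 rose and 0 fell, against 3.53% and 1.36% of all genes, and the median log2 fold change was 0.44. All FT 2 weeks samples lay above all NI samples for 11 of the 29, against 17.3% of all genes. They lay below them for 2, against 13.3%. The summed levels were 282 to 299 CPM in NI and 429.8, 399.9 and 370.1 CPM in FT 2 weeks, which did not overlap. The genes that rose were *E2f1*, a transcription factor of the cell cycle (log2 fold change 1.16), and *Cdk1*, the mitotic kinase (1.12), and with equal column totals neither was DE. The count was 1 without NI replicate 1, NI replicate 2 or FT 2 weeks replicate 2. *Mki67*, a nuclear protein of cycling cells, had 5.96, 7.72 and 6.24 CPM in NI and 9.27, 8.97 and 10.5 CPM in FT 2 weeks (log2 fold change 0.50, adjusted p = 0.128, limma). Of 24 listed genes of the DNA damage response 0 were DE. Among them *Cdkn1a*, the cell cycle inhibitor p21, had 37.2, 37.8 and 48.5 CPM in NI and 22.4, 87.1 and 125 CPM in FT 2 weeks. It was DE without FT 2 weeks replicate 1 (log2 fold change 1.34).

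Transcripts of astrocytes were lower in FT 2 weeks. Of 20 listed astrocyte markers 16 fell and 0 rose, with a median log2 fold change of -2.55, and their summed level was 676 to 1228 CPM in NI and between 220 and 381 CPM in FT 2 weeks. *Atp1b2*, a subunit of the sodium pump (chromosome 11, 69599736 to 69605942), had 90.5, 55.1 and 28.6 CPM in NI and 1.03, 6.09 and 3.82 CPM in FT 2 weeks (log2 fold change -3.91). *Slc1a2*, the glutamate transporter GLT-1 (chromosome 2, 102658659 to 102790784), had 152, 99.9 and 87.4 CPM in NI and 4.49, 16.3 and 12.9 CPM in FT 2 weeks (log2 fold change -3.41, standard error 0.47, adjusted p = 3.44e-05, limma). Replicate 1 was again the lowest. *Gja1* (chromosome 10, 56377330 to 56402513) and *Gjb6* (chromosome 14, 57123303 to 57133611), which encode the connexins of astrocytic gap junctions, fell by 3.15 and 2.77 on the log2 scale. *Aldoc*, the aldolase of astrocytes, went from 170.0 ± 59.9 to 26.2 ± 19.7 CPM (SD, n = 3 each). Of the 12 largest falls in the comparison, 6 were on the astrocyte list, *Atp1b2*, *Slc1a2*, *Gja1*, *Aldoc* and *Gjb6* among them. *Sparcl1*, *Gpr37l1*, *Acsbg1* and *Cpe* lay outside it, with log2 fold changes of -3.21, -2.89, -2.82 and -2.78, and were likewise highest in NI replicate 1. *Acsbg1* encodes an acyl-CoA synthetase. *Aldh1l1* (7.27, 7.59 and 3.74 CPM in NI and 5.52, 8.45 and 3.90 CPM in FT 2 weeks), a folate enzyme often used as an astrocyte marker, was not DE (log2 fold change -0.06).

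Without FT 2 weeks replicate 1, 15 astrocyte markers fell and the median was -2.06. All of the large falls named here outside border-associated macrophages remained DE, from -3.31 for *Atp1b2* to -1.97 for *Cpe*. *Aqp4*, the water channel of astrocyte endfeet, was the marker lost (-2.49 with all samples, -1.91 without replicate 1). Which cells in the sort these transcripts came from was not tested.

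Other cell types had smaller median changes than astrocytes. The median log2 fold change was -1.20 for myelinating oligodendrocytes, -0.62 for neurons and -0.61 for oligodendrocyte precursors, against -0.02 over all genes. All FT 2 weeks samples lay below all NI samples for 3 of 12, 7 of 13 and 5 of 10 of these markers, against 13.3% of all genes. With equal column totals 5, 5 and 4 of them were DE and lower. Of 12 listed genes of myelinating oligodendrocytes 1 fell, *Mal*, and it was not DE without FT 2 weeks replicate 1. Their summed level was 1318 to 2687 CPM in NI and 487, 2656 and 1561 CPM in FT 2 weeks, so that the groups overlapped, and *Mbp*, myelin basic protein, had 486 to 868 CPM in NI and 265, 1604 and 1028 CPM in FT 2 weeks. Of the 13 neuronal markers measured, 3 fell (*Snap25*, *Nefl* and *Nefm*), and the count of DE markers was 0 without NI replicate 1 or FT 2 weeks replicate 1 and 5 without FT 2 weeks replicate 2. Of 10 genes of oligodendrocyte precursors 2 fell (*Bcan* and *Ptprz1*) and 1 rose, and 5 were DE without FT 2 weeks replicate 2. The gene that rose was *Cspg4*, which encodes the proteoglycan NG2, with 2.50, 3.35 and 2.78 CPM in NI and 81.2, 30.7 and 42.8 CPM in FT 2 weeks (log2 fold change 3.84, standard error 0.37, adjusted p = 2.66e-07, limma). *Pdgfra*, the receptor that also marks these precursors, had 3.24 ± 0.551 and 2.37 ± 0.623 CPM (SD, n = 3 each), and *Olig1* had 5.28 to 9.95 CPM in NI and between 0.655 and 4.79 CPM in FT 2 weeks. Of 10 endothelial genes *Flt1* rose (log2 fold change 1.28) and *Pecam1* fell (-1.37). Of 7 genes of pericytes and fibroblasts *Dcn* fell, and not without FT 2 weeks replicate 1.

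Border-associated macrophages line the meninges and vessels and share the *Cx3cr1* promoter. Of 10 of their markers 6 fell and 3 rose, and without FT 2 weeks replicate 1 the counts were the same. *Lyve1*, a hyaluronan receptor (chromosome 7, 110850607 to 110863239), had 12.1, 13.5 and 12 CPM in NI and 0.936, 0.871 and 1.91 CPM in FT 2 weeks (log2 fold change -2.95, standard error 0.32, adjusted p = 1.24e-06, limma). *F13a1*, coagulation factor XIII, *Cbr2*, *Cd163*, the haptoglobin receptor, and *Mrc1*, the mannose receptor, fell by 2.28, 1.99, 1.99 and 1.58 on the log2 scale, and *Pf4* was the sixth. *Ms4a7*, a tetraspan protein, rose from 17.1 ± 1.59 to 77.6 ± 3.50 CPM (SD, n = 3 each), and *Folr2* and *Siglec1* were the others that rose. The summed level of the list was 695 to 737 CPM in NI and between 472 and 616 CPM in FT 2 weeks.

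Few markers of blood cells were DE. Only cells with high eGFP were sorted, and the paper reported such cells as negative for the surface marker LY6C in NI and HS mice. The levels therefore describe the sorted cells and do not measure the blood cells in the cord. Of 12 monocyte markers 1 rose, *Itgal*, an integrin chain (log2 fold change 1.76). *Ccr2*, the chemokine receptor of monocytes, had 18 ± 2.96 CPM in NI and 17.8 ± 2.89 CPM in FT 2 weeks (SD, n = 3 each), and *Ly6c2* had 0.772 to 1.63 CPM in NI and 0.0936, 2.96 and 2.67 CPM in FT 2 weeks. Of 11 neutrophil, 11 T and NK cell, 5 B cell and 6 dendritic cell markers 0 were DE. Their summed levels were 773 to 837, 10.6 to 12.7, 32.6 to 40.2 and 15.6 to 22 CPM in NI and 838 to 1025, 10.9 to 22.1, 31.2 to 35.3 and 17.3 to 18.6 CPM in FT 2 weeks. *S100a8*, an abundant transcript of neutrophils, had 35.3, 13.1 and 8.44 CPM in NI and 2.15, 93.5 and 20.1 CPM in FT 2 weeks. Without FT 2 weeks replicate 1, 3 monocyte markers, 2 T and NK cell markers and 1 B cell marker were DE. All members of these lists that were in the table had more than 3 reads in at least 1 of the 6 samples, and 1 of 5 erythroid genes was in it, which was not DE.

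Levels at 2 weeks were then set against the earlier times after the same lesion. Between FT 2 weeks and FT 72 h, 190 genes were higher at 2 weeks (1.13% of the genes tested) and 450 were lower (2.68%). Of the cell division genes, 28 of 29 were lower at 2 weeks than at 72 h, with a median log2 difference of -3.05 against 0.05 over all genes. *Ccnb1*, cyclin B1 (chromosome 13, 100778650 to 100786570), had 92.6, 103 and 74.8 CPM at 72 h and 5.15, 2.96 and 2.06 CPM at 2 weeks (log2 difference -4.61), and *Pbk*, a mitotic kinase (chromosome 14, 65805837 to 65817822), differed by -4.34. In NI the levels of *Ccnb1* were 2.40 to 3.87 CPM. *Arg1*, arginase 1 (chromosome 10, 24915221 to 24927484), had 87.1, 24.2 and 17 CPM at 72 h and 1.04 to 1.30 CPM at 2 weeks (log2 difference -4.32). Of the DNA damage genes 8 of 24 were lower at 2 weeks, and of the astrocyte markers 12 of 20.

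The genes that were higher at 2 weeks than at 72 h were led by *Cxcl13* (0.890 to 2.62 CPM at 72 h, log2 difference 4.08), *Cxcl9* (chromosome 5, 92321347 to 92328079, 1.34 to 1.46 CPM at 72 h, 3.24) and *Slc45a3*, a sugar transporter gene (chromosome 1, 131962967 to 131982969, 3.02). *Slc45a3* had 9.83, 6.27 and 8.25 CPM at 2 weeks. Of the damage-associated genes 4 of 21 were higher at 2 weeks than at 72 h and 0 were lower, and of the interferon-stimulated genes 0 were higher and 3 of 34 were lower. The interferon-stimulated list as a whole did not fall, with a median log2 difference of 0.35 against 0.05 over all genes. Its summed level was 2248 to 3180 CPM at 72 h and 2728 to 2973 CPM at 2 weeks. *Apoc1*, *Lpl* and *Cst7* were among the genes higher at 2 weeks (1.5, 1.14 and 1.18), and *Fn1* was lower (-1.12). This comparison and that with NI share the FT 2 weeks samples.

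Between FT 2 weeks and FT 1 week 12 genes differed, 8 higher (0.0476% of the genes tested) and 4 lower (0.0238%), with 773 genes at an unadjusted p under 0.05. *Postn*, the matrix protein periostin (chromosome 3, 54361109 to 54391037), had 8.82, 12.4 and 12.6 CPM at 1 week and 72.5, 40.9 and 42.0 CPM at 2 weeks (log2 difference 2.12, adjusted p = 0.00011, limma); in NI it had 6.18 to 6.97 CPM. *Mmp12* (chromosome 9, 7344381 to 7369499) had 11.6 to 17.7 CPM at 1 week and 59.3 to 63.1 CPM at 2 weeks (log2 difference 2.05). *Il1rn* (chromosome 2, 24336853 to 24351494) differed by 1.73, and *Flt1*, *Itgax*, *Tnfsf13b*, *Tubb6* and *AI504432* were the other genes that were higher; these and *Pde2a* are named for completeness of the count. *Folr2*, the folate receptor beta (chromosome 7, 101839988 to 101857194), had 113, 77.1 and 110.3 CPM at 1 week and 14.9, 20.8 and 15.2 CPM at 2 weeks (log2 difference -2.52). *Gpx3* (chromosome 11, 54902453 to 54910377) and *Wfdc17* (chromosome 11, 83703991 to 83706268) were lower by 1.93 and 1.53 on the log2 scale, and *Pde2a* was the fourth lower gene. *Folr2*, *Gpx3*, *Postn* and *Wfdc17* were the 4 genes called without FT 2 weeks replicate 2 and also without replicate 3, and 25 were called without replicate 1, *Il1b* and *Tnf* among them.

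**Figure D5:**
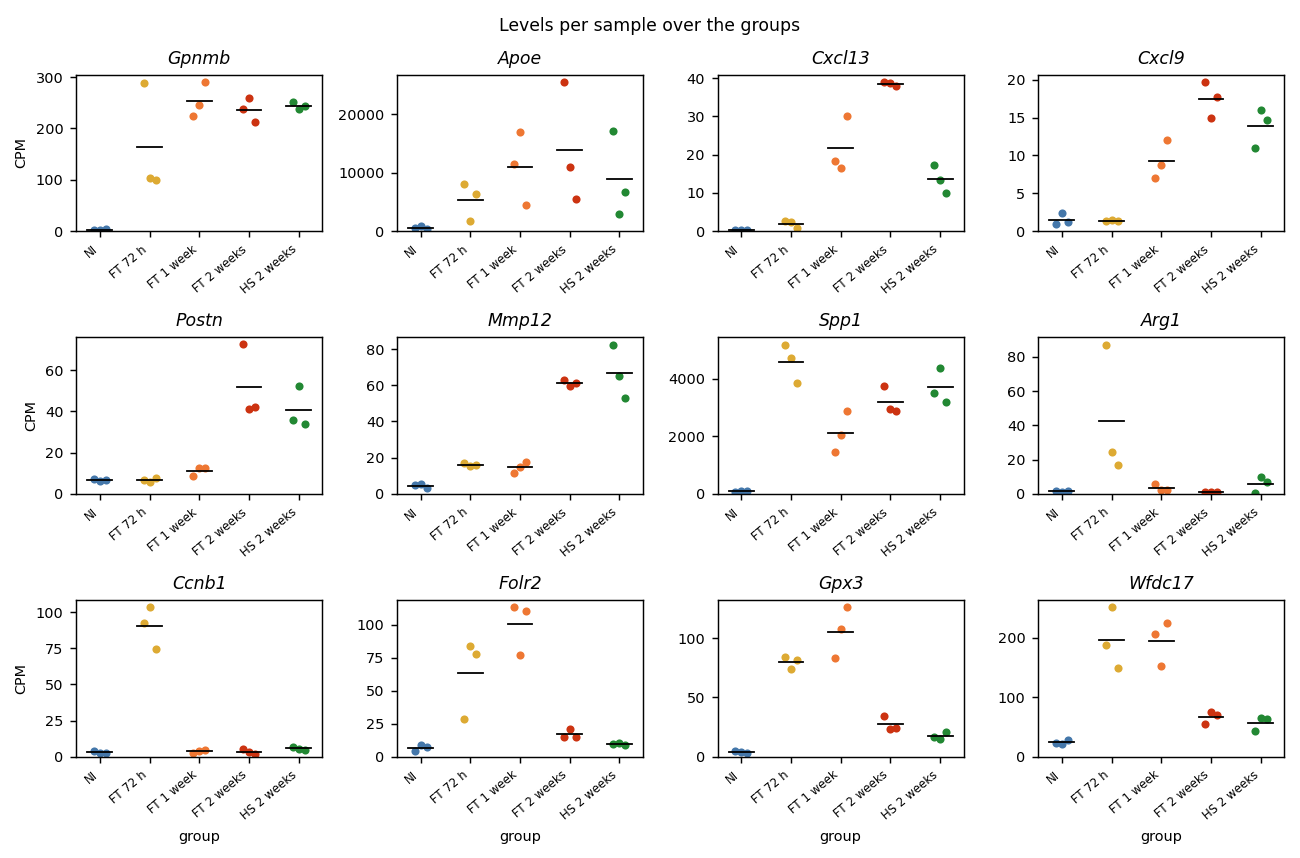
Level in CPM (vertical axes, linear from 0) of 12 genes in each sample of the NI, FT 72 h, FT 1 week, FT 2 weeks and HS 2 weeks groups (horizontal axis), with the mean as a bar. *Cxcl13* stands at 38.0 to 39.0 CPM at FT 2 weeks against 10.02 to 17.3 CPM at HS 2 weeks, and *Postn* and *Mmp12* are lower at 72 h and 1 week than at 2 weeks.

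Against the milder lesion at the same time, FT 2 weeks and HS 2 weeks, 0 genes were DE by limma (438 at an unadjusted p under 0.05) and 0 by the edgeR quasi-likelihood test (403). The edgeR likelihood ratio test and DESeq2 on recovered reads called 1 gene each, *Cxcl13*, which had 17.3, 13.5 and 10.02 CPM after HS and 39.0, 38.7 and 38.0 CPM after FT. The groups did not overlap, and the log2 difference was 1.5 (adjusted p = 1.00, limma, edgeR likelihood ratio adjusted p = 0.00737, DESeq2 adjusted p = 0.0101). The HS samples were shallower, at 4589874 to 8645472 reads. *Gpnmb* had 237 to 252 CPM after HS and 212 to 260.0 CPM after FT, and *Apoe* 2878 to 17050 CPM after HS, so that these overlapped. Other levels lay apart. The summed level of the interferon-stimulated list was 2728 to 2973 CPM after FT and 1457 to 2130 CPM after HS, with a median log2 difference of 0.60 against 0.01 over all genes, and 0 of its 34 genes were DE. *Ccl5* had 173 ± 4.51 CPM after FT and 78.9 ± 4.49 CPM after HS (SD, n = 3 each, log2 difference 1.13, adjusted p = 1.00, limma).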

How the data were processed

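Microglia of 20 samples in 7 groups were profiled by RNA-Seq, and 6 samples form the comparison. The authors trimmed reads, mapped them with TopHat2 2.0.9 to mm10 (GRCm38), counted them per gene with HTSeq 0.5.4p3, removed genes that did not reach 10 reads in 2 replicates, and normalised with edgeR 3.3.6, per the paper and the submitters' processing notes. The deposited signal is the read count scaled by an edgeR library size (CPM). Every one of the 336200 values was a whole multiple of 1 read, within 0.001 of it, so whole reads were recovered. Strandedness is not given in the sources used here, so antisense and overlapping genes cannot be told apart. No sequencing batch is given there either.

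Here log2(value + 0.5 CPM) of all 20 samples was fitted with limma 3.58.1 (R 4.3.3), allowing for an intensity trend and giving each group a mean. Genes were called DE at 2-fold or more where p, adjusted after Benjamini and Hochberg over the 16810 genes, was under 0.05. Fold changes are on this scale and understate those of low genes. The fits were tried on simulated data with large changes, the same spread for all genes and no outlying sample. That setting is simpler than these data, so it gives no measure of the calls made here. Whole reads were also tested with edgeR 4.0.16 (898 DE genes by the quasi-likelihood and 1008 by the likelihood ratio test) and DESeq2 1.42.0 (930). Other alternatives were the value added, a filter on low values, the scaling, the samples fitted, no fold limit, a replicate block and leaving out each sample. GENCODE vM21 gave a position for 16593 symbols. Named genes were the 12 largest rises and falls without overlap between groups and with a mean of at least 5 CPM in 1 group, the first 3 members and up to 4 DE members with the largest change of each of 35 lists, and up to 3 rises and falls of each other comparison; other genes were chosen after their values were seen, and some named genes are not reported here. The members, lists and tests were chosen with earlier results of these data known, and the 619 list genes in the table (of 629) overlap between lists. The methods call the 3 samples of a group biological replicates. Counting limits cover counting error only.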

Additional observations from a re-analysis of the deposited data

Results flagged for a closer look

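The effect of full transection at 2 weeks differed from that at an earlier time, by a direct limma test, for some of the genes with the largest change. Relative to 72 h, the level at 2 weeks was higher for *Cxcl13* (log2 difference 4.08), *Cxcl9* (3.24), *Slc45a3* (3.02), *Postn* (2.83), *Apoc4* (2.12), *Mmp12* (1.9), *Apoc1* (1.5), *Cst7* (1.18) and *Lpl* (1.14).

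It was lower than at 72 h for the cell division genes *Ccnb1* (-4.61), *Pbk* (-4.34), *Top2a* (-4.06), *Mki67* (-3.69) and *Cdk1* (-2.66), and for *Arg1* (-4.32), *Folr2* (-1.74), *Gpx3* (-1.55), *Wfdc17* (-1.53), *Fn1* (-1.12) and *Lyve1* (-1.75). Transcripts that astrocytes carry were also lower at 2 weeks than at 72 h, namely *Atp1b2* (-2.99), *Gja1* (-2.48), *Acsbg1* (-2.45), *Slc1a2* (-2.0), *Aldoc* (-1.95) and *Gjb6* (-1.53).

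Relative to 1 week, the level at 2 weeks was higher for *Postn* (2.12), *Mmp12* (2.05) and *Il1rn* (1.73), and lower for *Folr2* (-2.52), *Gpx3* (-1.93) and *Wfdc17* (-1.53). *Folr2*, *Gpx3* and *Wfdc17* were higher at 2 weeks than in NI, with log2 fold changes of 1.37, 2.61 and 1.46.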

How the results depend on the processing

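The count of 821 DE genes against NI ranged from 745 to 1106 under 11 of the 12 other scalings, filters and tests; without a fold limit it was 1373. Without a fold limit the count against FT 72 h was 971. The 12 genes against FT 1 week were 6 with only the samples of both groups, 40 by the edgeR likelihood ratio test and 33 by DESeq2, and the 0 genes against HS 2 weeks were 1 by each of these tests. With 1 sample left out the counts ranged from 656 to 802 against NI (lowest without NI replicate 2), from 495 to 645 against FT 72 h and from 4 to 25 against FT 1 week (20, 7 and 6 without FT 1 week replicate 1, 2 and 3). Of 128 named genes that were DE against NI, 91 were DE under all settings and 95 under all but equal column totals; 0 changed sign. Calls were lost most often for *Nefm* (10 settings), *Dcn* (9), *P2ry12* (8), *Mal* (8), *Cd83* (6) and *Scd1* (6); the cause was not tested. Without FT 2 weeks replicate 1 the count of DE members moved by over 1.5 times for cytokines, homeostatic genes, DNA damage genes and the markers of neurons, myelin, pericytes, monocytes, T and NK cells and B cells. With another single sample left out it moved by over 1.5 times for homeostatic, class II, oxidative phosphorylation, cell division, oligodendrocyte precursor, myelin, neuronal and pericyte genes.

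The replicate numbers did not pair the samples throughout. Deviations of the same-numbered NI and FT 2 weeks samples correlated at 0.0507, 0.0392 and 0.432, and 1 of 3 samples correlated best with its own number. With HS 2 weeks the values were 0.444, 0.00171 and -0.0967, and FT 2 weeks replicate 1 correlated best with HS 2 weeks replicate 1. With FT 72 h and FT 1 week they lay between -0.408 and 0.0567. What replicate 1 of FT and of HS had in common was not tested. With a replicate block the counts were 820 against NI, 627 against FT 72 h, 5 against FT 1 week and 0 against HS 2 weeks. With 3 samples a group, genes of few reads and changes near 2-fold are the least certain.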

Other observations

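Genes outside the lists, chosen after their values were seen, are given here as single genes. They include 6 for inhibitory immune receptors, a ligand and a cytokine antagonist. *Pdcd1*, which encodes the receptor PD-1, had 31.1, 26.9 and 18.8 CPM in NI and 210.2, 121 and 108 CPM in FT 2 weeks (log2 fold change 2.46, limma adjusted p = 1.84e-05). *Cd274*, its ligand PD-L1, had 14.2, 16.3 and 12.2 CPM in NI and 49.7, 52.2 and 54.6 CPM in FT 2 weeks (1.85). *Cd72*, *Cd300lf* and *Cd22*, receptors with inhibitory motifs, rose by 3.27, 2.98 and 2.69 on the log2 scale, and *Il18bp*, the secreted antagonist of interleukin 18, by 1.93. In all 6 genes the 3 FT 2 weeks samples lay above all NI samples, against 17.3% of all genes. Since the 6 were chosen with these values known, their separation is no result about such receptors. Of signalling receptors, *Il2rg*, the common gamma chain, *Niacr1*, the niacin receptor, and *Cxcr4* rose by 2.82, 2.19 and 2.05. The transcription factor genes *Bhlhe40* and *Hif1a* rose by 3.21 and 1.5, and the protease gene *Adam8* by 3.29. *Irg1*, the enzyme that makes itaconate, had 0.953, 1.29 and 1.82 CPM in NI and 4.96, 24.5 and 24.7 CPM in FT 2 weeks, with the lowest injured level again in replicate 1.

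Among lower genes, *Il7r*, the interleukin 7 receptor, had 40.2, 42.5 and 40.3 CPM in NI and 12.3, 10.7 and 11.6 CPM in FT 2 weeks (log2 fold change -1.79, limma adjusted p = 7.84e-06). *Mgl2*, a lectin of macrophages, and *Bank1* fell by 2.38 and 1.95 on the log2 scale, and *Siglece* and *Lifr* by 1.03 and 1.01. *Tsc22d3*, a target of glucocorticoids, had 521, 752 and 692 CPM in NI and 123, 386 and 333 CPM in FT 2 weeks (-1.37); it was not DE without FT 2 weeks replicate 1. *Agt*, *Mt3* and *Kcnj10*, genes that astrocytes express, fell by 2.38, 1.99 and 1.51, and *Mt3* lost its call without FT 2 weeks replicate 1.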
